A study of Canis lupus familiaris with 29 samples.

Results

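The genes described here are 10 targets of the transcription factor NF-kB and cytokines in MDCKII cells, an epithelial line from dog kidney: the chemokines CCL2 and CCL5, the cytokines CSF2 and LIF, the adhesion molecule ICAM1, the inhibitors NFKBIA and TNFAIP3, the TNF-induced gene TNFAIP2, the prostaglandin enzyme PTGS2 and the receptor IL1RL1. They were chosen by gene name, with earlier results of these libraries known, for lower levels in cysts and monolayers than at day 0 and for their levels in each knockdown. Those contrasts are therefore described without a test. Each symbol was found once among the 24223 genes measured. All 10 reached 1 FPKM (fragments per kilobase of transcript, scaled to the mapped fragments of the library) in at least 2 libraries, the filter that left 11774 genes for testing. CCL5 passed that filter only through knockdown libraries: it was at 1 FPKM or more in 5 of 29 libraries and listed at 0 in 9.

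RNA was sequenced in 29 libraries of 13 groups. Wild-type cells were taken at day 0 (n = 4), as 3D cultures on matrigel at 24 h and at days 3, 5 and 8 (n = 2 each) and day 14 (n = 1), and as 2D cultures on transwell inserts at days 4 and 11 (n = 3 each). Cells with a knockdown (KD) of DENND5A, and cells with a knockdown of AVL9, both coding for DENN domain proteins, were collected at day 0 and on transwell inserts at day 4 (n = 2 each), and DENND5A-KD cells also at 2D day 7 (n = 2). DENND5A-KD samples are numbered 1 and 2 and AVL9-KD samples 1 and 4 in the labels; these are called lines here, and whether a line is a clone or a hairpin is not stated, no control line treated likewise is among the samples, and no knockdown was taken in 3D. All groups are 1 cell line. Whether replicates came from separate cultures is not stated, so the p-values measure no more than the variation among these samples, possibly technical.

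NF-kB is a family of dimeric transcription factors that inhibitors of the IkB group hold in the cytoplasm. Signals from TNF, interleukin-1 and Toll-like receptors run through adaptors and ubiquitin ligases to the IKK kinase, which marks the inhibitors for destruction, and the dimers then switch on chemokines, cytokines, adhesion molecules and also their own inhibitors, such as NFKBIA and TNFAIP3, which end the response. In kidney tubule epithelium this programme is known for drawing leukocytes to injured or infected tubules.

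Knockdown was visible in the labelled gene. DENND5A averaged 1.95 FPKM in DENND5A-KD against 5.62 in wild type at day 0 (a log2 difference of -1.16 ± 0.12, adjusted p = 5.62e-06), and AVL9 averaged 6.46 in AVL9-KD against 23 (a log2 difference of -1.70 ± 0.14, adjusted p = 1.33e-07). Of the renal epithelial markers, 7 of 9 were found, summing to 796.5 to 1544 FPKM per library. Leukocyte markers that these cultures should lack were below 1 FPKM in every library for 10 of the 11 found, with a summed level of 0.357 to 1.52 and with CD3E and MS4A1 listed at 0 throughout, while CD74 was high (up to 1517). All 5 fibroblast and all 5 endothelial markers found stayed below 1 FPKM. The FPKM of a library summed to between 276017 and 441332, and absolute depth is unknown. A set of 5 wild-type libraries (the day 14 library and the replicates numbered 1 at day 0, on matrigel at days 3 and 8, and on transwell inserts at day 4) had a depth of 0.44 to 0.70 relative to day 0 replicate 2, against 0.83 to 1.08 in the other wild-type libraries. Since these are bulk samples, fewer cells expressing a gene and less RNA per cell cannot be told apart.

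**Figure D1:**
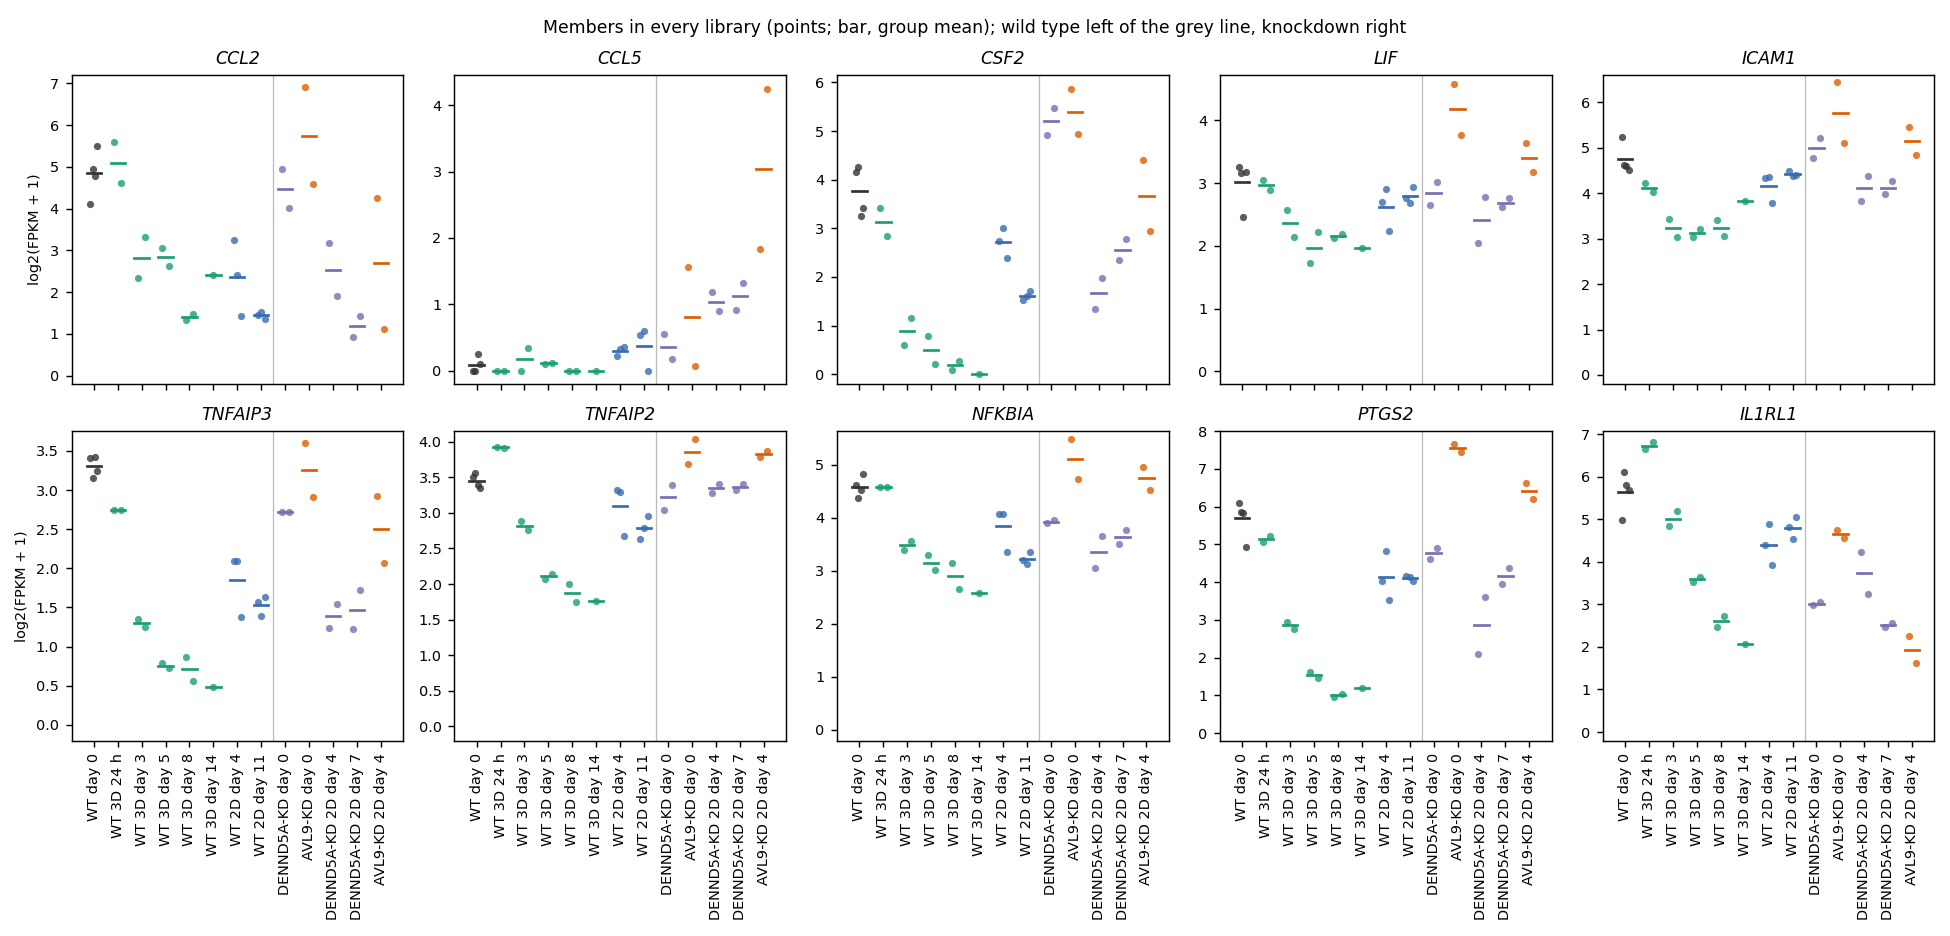
Each panel plots 1 gene as log2(FPKM + 1) on the vertical axis against the 13 groups on the horizontal axis, with a point per library and a bar at the group mean, wild type to the left of the grey line and knockdowns to the right. PTGS2 was lowest in 3D days 8 and 14 (0.943 to 1.30 FPKM) and highest in AVL9-KD at day 0 (174 and 202 FPKM), and CCL5 was near 0 in every wild-type group.

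CCL2 (ENSCAFG00000018349) encodes a chemokine that draws monocytes. Wild-type day 0 libraries held 16.4, 30.1, 26.6 and 44.4 FPKM (replicate order, as in all lists below), and the 24 h libraries 47.2 and 23.5. In 3D culture it read 4.07 and 8.96 at day 3, 7.33 and 5.12 at day 5, 1.5 and 1.79 at day 8 and 4.3 in the day 14 library. Every 3D library from day 3 on lay below every day 0 library, and the difference at day 8 was -3.44 ± 0.70 (log2 of FPKM + 1, with its standard error, the scale of all differences here). Transwell cultures held 8.56, 4.29 and 1.68 at day 4 and 1.72, 1.87 and 1.58 at day 11, as low at day 11 as in 3D day 8, with overlapping ranges. DENND5A-KD lines 1 and 2 held 29.7 and 15.1 at day 0, 8.06 and 2.73 at 2D day 4 and 0.904 and 1.71 at day 7. AVL9-KD lines 1 and 4 held 119 and 23.1 at day 0 and 18.1 and 1.19 at 2D day 4. The AVL9-KD lines stood far apart, line 1 reading 15.3 times line 4 at day 4.

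CCL5 (ENSCAFG00000018171) encodes a chemokine for T cells, monocytes and eosinophils. In wild type it was at most 0.516 FPKM: 0, 0, 0.189 and 0.0764 at day 0, 0 in both 24 h libraries, 0 and 0.274 at 3D day 3, 0.0725 and 0.0845 at day 5, and 0 in the 3 libraries of days 8 and 14. The 2D cultures held 0.17, 0.249 and 0.286 at day 4 and 0.45, 0.516 and 0 at day 11. At these levels no fold is given against day 0 or 24 h. Knockdown libraries held 0.47 and 0.126 (DENND5A-KD) and 1.95 and 0.0501 (AVL9-KD) at day 0, then 1.27 and 0.865 (DENND5A-KD day 4), 0.883 and 1.5 (day 7) and 2.56 and 18 (AVL9-KD day 4). At 2D day 4 all 4 knockdown libraries lay above all 3 wild-type libraries, and AVL9-KD line 4 was the highest of the 29. CCL5 passed the filter only through knockdown libraries, so nothing is read from this order.

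CSF2 (ENSCAFG00000000820) encodes granulocyte-macrophage colony-stimulating factor. Day 0 libraries held 16.9, 18.1, 8.56 and 9.72 FPKM and 24 h libraries 9.72 and 6.16. Through 3D culture it read 0.515 and 1.24 at day 3, 0.722 and 0.16 at day 5, 0.0678 and 0.213 at day 8 and was listed at 0 at day 14. No 3D library from day 3 on reached the lowest day 0 library, and the day 5 and day 8 libraries were all under 1 FPKM. In 2D it kept more, with 5.68, 6.98 and 4.28 at day 4 and 1.9, 2.04 and 2.26 at day 11 (-2.16 ± 0.32 from day 0, beside -3.59 ± 0.37 for 3D day 8). Both knockdowns were high at day 0, with 29.3 and 43.7 in DENND5A-KD and 57.4 and 29.6 in AVL9-KD, all above the highest wild-type day 0 library. At 2D day 4 DENND5A-KD held 1.53 and 2.97 and AVL9-KD 20.1 and 6.66, and at day 7 DENND5A-KD held 4.1 and 5.85. The DENND5A-KD libraries were then below, and 1 AVL9-KD library far above, the wild-type day 4 range.

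LIF (ENSCAFG00000030931), a cytokine of the interleukin-6 family, spanned the narrowest FPKM range in wild type after CCL5. It read 8.56, 7.99, 4.5 and 8.01 FPKM at day 0 and 7.27 and 6.44 at 24 h. The 3D values were 4.97 and 3.44 at day 3, 2.3 and 3.66 at day 5, 3.37 and 3.57 at day 8 and 2.92 at day 14. Days 5 and 8 lay below day 0 without overlap, by -0.86 ± 0.26 at day 8, whereas the day 3 values overlapped day 0. In 2D it held 5.47, 6.47 and 3.74 at day 4 and 5.82, 5.43 and 6.64 at day 11, inside the day 0 range but for the lowest day 4 library. DENND5A-KD held 5.31 and 7.09, 3.12 and 5.84 and 5.15 and 5.76 at days 0, 4 and 7, and AVL9-KD 23.1 and 12.7 and 11.5 and 8.03 at days 0 and 4. Only AVL9-KD lay above wild type of the same day in both lines.

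ICAM1 (ENSCAFG00000031460), which leukocyte integrins bind, read 37, 23.6, 23.4 and 22 FPKM at day 0 and 17.7 and 15.3 at 24 h. In 3D it held 9.88 and 7.24 at day 3, 7.23 and 8.3 at day 5, 9.62 and 7.31 at day 8 and 13.3 at day 14. All 3D groups, 24 h included, lay below day 0, by -1.52 ± 0.29 at day 8. Transwell cultures held 19.2, 19.6 and 12.9 at day 4 and 21.5, 19.8 and 20.3 at day 11. Every transwell library also lay below every day 0 library, though by less, with a difference of -0.32 ± 0.25 at day 11. DENND5A-KD held 26.5 and 36.1 at day 0, followed by 13.3 and 19.7 at day 4, then 14.8 and 18.2 at day 7. AVL9-KD held 86.1 and 33.5 at day 0 and 42.9 and 27.7 at day 4, and its day 4 libraries exceeded every wild-type and DENND5A-KD 2D library.

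NFKBIA (ENSCAFG00000013418) encodes IkB-alpha, the inhibitor that NF-kB itself induces. It read 23.4, 19.8, 21.9 and 27.2 FPKM at day 0 and 22.9 and 22.9 at 24 h, inside the day 0 range. It then read 9.56 and 10.9 at 3D day 3, 8.77 and 7.11 at day 5, 7.83 and 5.3 at day 8 and 4.95 at day 14, and 15.9, 15.8 and 9.24 and 8.27, 7.72 and 9.16 at 2D days 4 and 11. All of these lay below day 0 without overlap, by -1.68 ± 0.23 at 3D day 8 and -1.35 ± 0.20 at 2D day 11. DENND5A-KD held 13.9 and 14.4 at day 0, followed by 7.27 and 11.5 at day 4, then 10.3 and 12.5 at day 7, and AVL9-KD 43.8 and 25.4 at day 0 and 30.2 and 22.1 at day 4. At day 0 the DENND5A-KD lines lay below wild type, and at day 4 the AVL9-KD lines lay above it.

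TNFAIP3 (ENSCAFG00000000267) encodes A20, a ubiquitin-editing enzyme that shuts off signalling to IKK. It read 9.64, 7.87, 9.73 and 8.45 FPKM at day 0, 5.73 and 5.73 at 24 h, and in 3D 1.56 and 1.38 at day 3, 0.723 and 0.649 at day 5, 0.83 and 0.471 at day 8 and 0.396 at day 14. In 2D it held 3.26, 3.27 and 1.6 at day 4 and 1.97, 1.62 and 2.11 at day 11. Every wild-type library of every later group lay below day 0, by -2.59 ± 0.23 at 3D day 8 and -1.77 ± 0.20 at 2D day 11. DENND5A-KD held 5.6 and 5.57, 1.36 and 1.91 and 1.33 and 2.29 at days 0, 4 and 7, and AVL9-KD 11.1 and 6.54 and 6.62 and 3.18 at days 0 and 4. The highest knockdown values were those of AVL9-KD line 1 on both days.

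TNFAIP2 (ENSCAFG00000018188), a TNF-induced protein related to an exocyst subunit and known to work with RALA at the cell surface, was higher at 24 h than at day 0, with 14.2 and 14.1 against 10.3, 10.8, 9.45 and 9.21 FPKM (0.47 ± 0.15). In 3D it was lower after that, at 6.38 and 5.76 at day 3, 3.22 and 3.41 at day 5, 3.02 and 2.37 at day 8 and 2.41 at day 14. In 2D it held 9.02, 8.78 and 5.41 at day 4 and 5.19, 5.92 and 6.74 at day 11. The 3D day 8 difference from day 0 was -1.57 ± 0.15, and that of 2D day 11 was -0.66 ± 0.14, both without overlap. Knockdown values were 7.26 and 9.55, 8.69 and 9.64 and 8.96 and 9.61 in DENND5A-KD at days 0, 4 and 7, and 11.8 and 15.4 and 12.8 and 13.7 in AVL9-KD at days 0 and 4. AVL9-KD was above every wild-type library of the same day.

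PTGS2 (ENSCAFG00000013762), the inducible cyclooxygenase of prostaglandin synthesis, spanned the widest FPKM range of the members. Wild type held 68, 57.6, 56.5 and 29.4 FPKM at day 0 and 32.4 and 36.2 at 24 h, which overlapped. It was 6.72 and 5.8 at 3D day 3, 2.05 and 1.73 at day 5, 0.943 and 1.06 at day 8 and 1.3 at day 14, against 15.2, 27.3 and 10.5 at 2D day 4 and 16.9, 16.6 and 15.2 at 2D day 11. Every 2D library lay above every 3D library from day 3 on, and below every day 0 library. DENND5A-KD held 23.6 and 29.1 at day 0, followed by 3.29 and 11.2 at day 4, then 14.4 and 19.8 at day 7. AVL9-KD held 202 and 174 at day 0 and 98.2 and 72.7 at day 4. The 4 AVL9-KD libraries were the 4 highest of all 29, and the DENND5A-KD day 0 libraries both lay below the lowest wild-type day 0 library.

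IL1RL1 (ENSCAFG00000002142) encodes ST2, the receptor for interleukin-33. Like TNFAIP2, it was higher at 24 h in 3D than in any day 0 library, at 99.7 and 112 against 30.5, 68.4, 54.8 and 50.3 FPKM (1.09 ± 0.29). It then read 27.9 and 35.4 at 3D day 3, 10.6 and 11.5 at day 5, 4.54 and 5.66 at day 8 and 3.19 at day 14. In 2D it held 20.1, 28.8 and 14.1 at day 4 and 27.2, 22.3 and 32.1 at day 11, where the values reached into the day 0 range. DENND5A-KD lines held 6.86 and 7.32 at day 0, followed by 17.8 and 8.52 at day 4, then 4.52 and 4.95 at day 7. AVL9-KD lines held 26 and 22.4 at day 0 and 3.78 and 2.07 at day 4. IL1RL1 was therefore lower than wild type in both knockdowns at day 0, and at day 4 AVL9-KD had the lowest group mean of the 13 groups.

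Set side by side, the members went different ways at 24 h, and from day 3 on most, though not CCL5, were lower than at day 0. At 24 h in 3D, ICAM1 and TNFAIP3 lay below all day 0 libraries, 2 of 10 members beside 7.7% of all genes tested, and TNFAIP2 and IL1RL1 lay above them, 2 of 10 beside 19.4%. Lower without overlap were 7 members at 3D day 3 (28.4% of all genes), 9 at day 5 (35.1%) and 9 at day 8 (40.4%), all but CCL5. In 2D, 8 were lower at day 4 (27.4%) and 7 at day 11 (25.7%). These contrasts chose the members, so the counts describe the choice and nothing is read from them. Without the 5 libraries of low depth the counts were 9 at 3D day 3 (36.3% of all genes), 9 at day 5 (37.5%) and 9 at day 8 (52.3%), with 1 library left at days 3 and 8, and 8 at both 2D day 4 (35.3%) and day 11 (27.5%).

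By day 3 of 3D culture, 7 members had over 50% of their day 8 difference from day 0. ICAM1 had 99.2% of it (-1.51 ± 0.29), CSF2 80.7% (-2.89 ± 0.37), TNFAIP3 77.3% (-2.0 ± 0.23) and LIF 76% (-0.65 ± 0.26). NFKBIA had 65.2% (-1.10 ± 0.23), PTGS2 60.4% (-2.83 ± 0.35) and CCL2 58.5% (-2.01 ± 0.70). The 2 members that had been higher at 24 h had less of it at day 3, TNFAIP2 40% (-0.63 ± 0.15) and IL1RL1 20.6% (-0.63 ± 0.29), and reached -1.34 ± 0.15 and -2.06 ± 0.29 at day 5. The median difference of the 10 members from day 0 was -1.30 at day 3, -1.81 at day 5 and -2.14 at day 8, against -0.90 and -1.10 at 2D days 4 and 11, while the median of all genes tested was 0.05, -0.04, -0.13, 0.00 and 0.06.

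**Figure D2:**
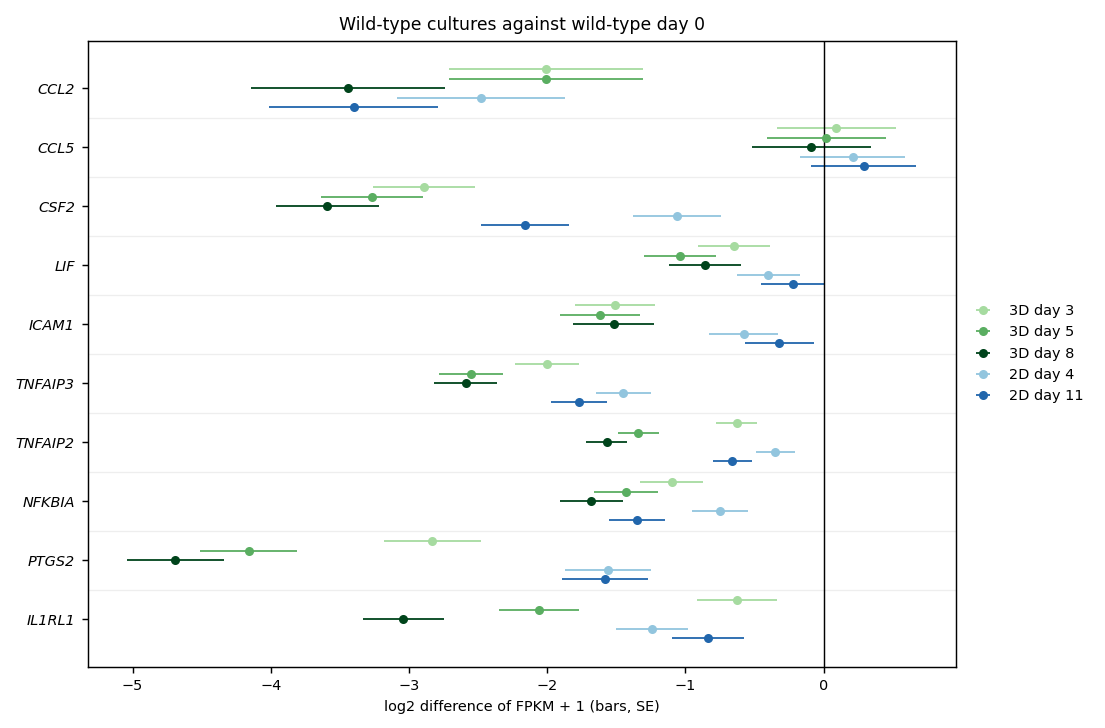
The horizontal axis gives the log2 difference of FPKM + 1 from wild-type day 0, with bars for the standard error, for each member on the vertical axis and for 3D days 3, 5 and 8 and 2D days 4 and 11. PTGS2 and CSF2 lay farthest left in 3D (-4.69 and -3.59 at day 8), CCL2 was about as low at 2D day 11 as at 3D day 8 (-3.40 and -3.44), and LIF and ICAM1 lay between -0.58 and -0.22 in 2D.

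In wild type, 7 members were lower in cysts than in monolayers without overlap, beside 24.5% of all genes, and none was higher (9.1%), comparing 3D days 5 and 8 (4 libraries) with 2D days 4 and 11 (6 libraries). The difference was -2.85 ± 0.26 for PTGS2, -1.82 ± 0.27 for CSF2 and -1.51 ± 0.22 for the receptor IL1RL1. For the adhesion molecule ICAM1 it was -1.12 ± 0.21, for the inhibitor TNFAIP3 -0.96 ± 0.17, for TNFAIP2 -0.95 ± 0.11 and for LIF -0.64 ± 0.19. NFKBIA (-0.50 ± 0.17), CCL2 and CCL5 overlapped. The fall in these libraries chose the members, so the values are a description and carry no test. The members' median was -0.96, beside -0.12 over all genes.

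PTGS2 lay on opposite sides of wild type in the knockdowns at day 0, and it was the 1 member to do so without overlap. At day 0, DENND5A-KD had 1 member above all wild-type libraries, CSF2 (1.43 ± 0.37), beside 11.9% of all genes, and 4 below them, TNFAIP3 (-0.59 ± 0.23), NFKBIA (-0.66 ± 0.23), PTGS2 (-0.92 ± 0.35) and IL1RL1 (-2.63 ± 0.29), beside 12.6%. AVL9-KD had 4 above, CSF2 (1.63 ± 0.37), LIF (1.17 ± 0.26), TNFAIP2 (0.41 ± 0.15) and PTGS2 (1.87 ± 0.35), beside 26.8% of all genes, and 1 below, IL1RL1 (-0.99 ± 0.29), beside 9.33%. CSF2 was thus above wild type in both knockdowns and IL1RL1 below it in both. AVL9-KD line 1 at day 0 held the highest value of all 29 libraries for 7 of the 10 members, CCL2, CSF2, LIF, ICAM1, TNFAIP3, NFKBIA and PTGS2. Without that library the members' median difference of AVL9-KD from wild type was 0.25, against 0.82 with it, and that of LIF was 0.76 and that of PTGS2 1.76; NFKBIA (0.14), TNFAIP3 (-0.39) and CCL2 (-0.25) were then near or below 0.

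At 2D day 4 no member lay on opposite sides of wild type without overlap. In its mean FPKM PTGS2 did so, with DENND5A-KD line 2 inside the wild-type range. The means of CSF2, LIF, ICAM1, TNFAIP3 and NFKBIA also lay below wild type in DENND5A-KD and above it in AVL9-KD. DENND5A-KD had 1 member above wild type without overlap, CCL5 (0.74 ± 0.45), beside 16.5% of all genes, and 1 below, CSF2 (-1.05 ± 0.39), beside 18.2%. AVL9-KD had 6 above, beside 38.1% of all genes: CCL5 (2.74 ± 0.45), LIF (0.80 ± 0.27), ICAM1 (0.98 ± 0.30), TNFAIP2 (0.73 ± 0.16), NFKBIA (0.91 ± 0.24) and PTGS2 (2.30 ± 0.37). IL1RL1 was the 1 member below (-2.47 ± 0.31), beside 6.17%. CCL5 is counted above wild type in both knockdowns, but it passed the filter only through knockdown libraries, so nothing is read from its place. The rule names these levels, so they carry no test. Over all genes the median AVL9-KD difference from wild type was 0.11 at day 0 and 0.19 at day 4, and the members' medians were 0.82 and 0.85; those of DENND5A-KD were -0.30 and -0.34, beside -0.01 and -0.03. Counts were also taken without the wild-type libraries of low depth, with every knockdown library kept whatever its depth. Above and below wild type at day 0 these counts were 2 and 4 for DENND5A-KD (17.4% and 17.9% of all genes). For AVL9-KD the day 0 counts were 5 and 1 (36.6% and 14.5%). At day 4 they were 1 and 1 for DENND5A-KD (23.2% and 20.1%) and 6 and 1 for AVL9-KD (50.1% and 7.31%). AVL9-KD line 1 at day 0 had a relative depth of 0.72 and line 4 one of 1.68, and at day 4 these were 1.64 and 0.52; the part of depth in these levels was not tested.

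**Figure D3:**
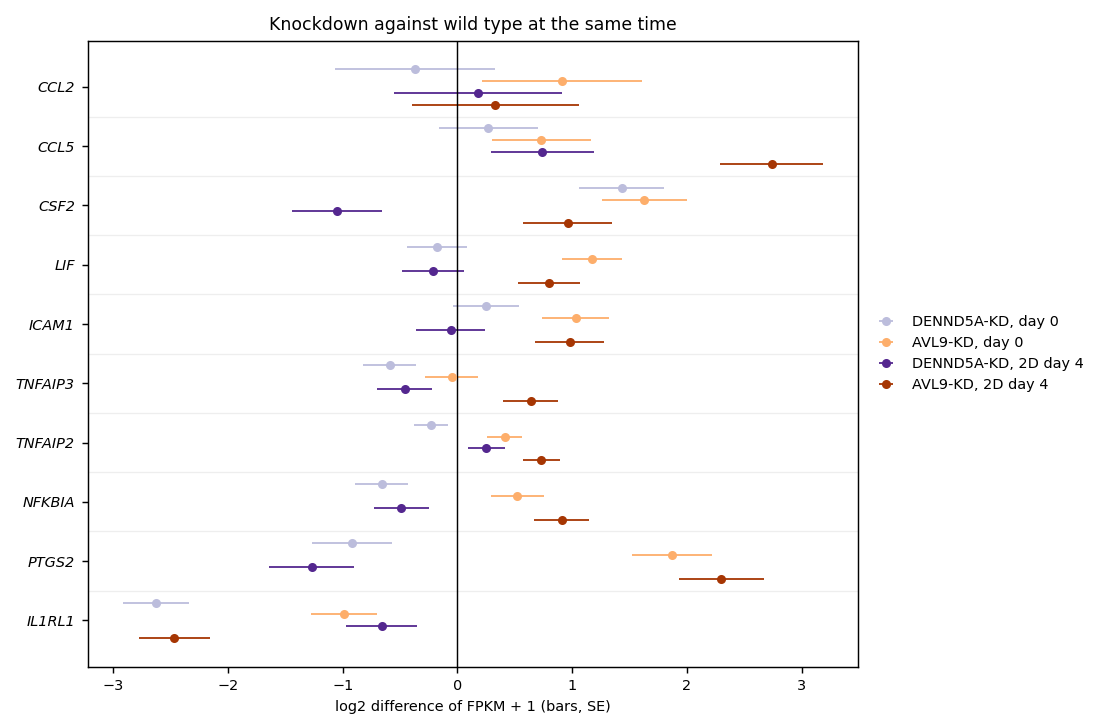
Log2 differences of FPKM + 1 between each knockdown and wild type of the same day (horizontal axis, bars for the standard error) are drawn for each member (vertical axis) at day 0 in light and at 2D day 4 in dark colours. PTGS2 lay right of 0 in AVL9-KD (1.87 and 2.30) and left of it in DENND5A-KD (-0.92 and -1.27), and IL1RL1 lay left of 0 in all 4 comparisons.

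In DENND5A-KD cells, limma called 4 of 10 members lower at 2D day 4 than at day 0 and 0 higher. Of all 11774 genes, 2615 were called lower and 2368 higher (42.3%). The rule names the level in each knockdown line and this step is built from those levels, so its p-values are no independent support. CSF2 fell by 3.54 ± 0.42 (adjusted p = 3.77e-06), PTGS2 by 1.91 ± 0.40 (adjusted p = 0.000851), TNFAIP3 by 1.33 ± 0.26 (adjusted p = 0.000513) and ICAM1 by 0.89 ± 0.33 (adjusted p = 0.0361). CSF2, PTGS2 and TNFAIP3 passed in all 13 alternatives, PTGS2 with -1.16 without line 1 of day 4. ICAM1 did not pass without line 2 of day 0 (-0.68, adjusted p = 0.23), without line 1 of day 4 (-0.63, adjusted p = 0.245), under quantile normalization (adjusted p = 0.0546), without the filter (0.0602) or with the groups fitted alone (0.051). With the line as a block, CCL2 (-1.93 ± 0.80, adjusted p = 0.0254, against 0.059 without) and NFKBIA (-0.58 ± 0.26, adjusted p = 0.0465, against 0.0816) passed as well. The members' median was -0.73, beside -0.01 over all genes.

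In AVL9-KD cells 6 members fell over the same step, where 2689 of all genes were called lower and 3657 higher (53.9%). These p-values too come from levels that the rule names. IL1RL1 fell by 2.71 ± 0.34 (adjusted p = 1.59e-06) and passed in all 13 alternatives. CCL2 fell by 3.06 ± 0.80 (adjusted p = 0.00329), CSF2 by 1.73 ± 0.42 (adjusted p = 0.00186) and PTGS2 by 1.14 ± 0.40 (adjusted p = 0.0218). TNFAIP3 fell by 0.76 ± 0.26 (adjusted p = 0.0204) and LIF by 0.77 ± 0.30 (adjusted p = 0.0359). Calls other than that of IL1RL1 rest on single libraries. Without line 4 of day 4, a library with a relative depth of 0.52, IL1RL1 alone of the 6 passed: CCL2 gave -1.49 (adjusted p = 0.137), LIF -0.54 (0.249), TNFAIP3 -0.33 (0.376) and PTGS2 -0.93 (0.141), and CSF2 had an adjusted p of 0.0759. Without line 1 of day 0, IL1RL1 and CSF2 passed, and CCL2 gave -1.90 (adjusted p = 0.0904), LIF -0.36 (0.404), TNFAIP3 -0.42 (0.274) and PTGS2 -1.03 (0.101). With the groups fitted alone, IL1RL1 and PTGS2 passed. LIF also did not pass with a pseudocount of 0.1 (adjusted p = 0.0518) or without the filter (0.0577). CCL5 was higher at day 4 in both lines (2.56 and 18 against 1.95 and 0.0501 FPKM), but it had entered the test through knockdown libraries, these among them, so its difference of 2.22 ± 0.49 is given without a test. The members' median was -0.77, beside 0.09 over all genes.

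IL1RL1 moved differently in the knockdowns. Both DENND5A-KD values at day 4 were above those at day 0. The difference between the changes was 3.44 ± 0.47 for DENND5A-KD minus AVL9-KD (limma adjusted p = 0.00239). This test was added after the data were seen and uses levels that the rule names, so its p-value is no independent support. IL1RL1 was the only member called, 1 of 10, where 1.43% of all genes were called. Leaving out each library in turn gave 2.95 to 3.94, all called, and the fit of these groups alone was not called (adjusted p = 0.261).

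**Figure D4:**
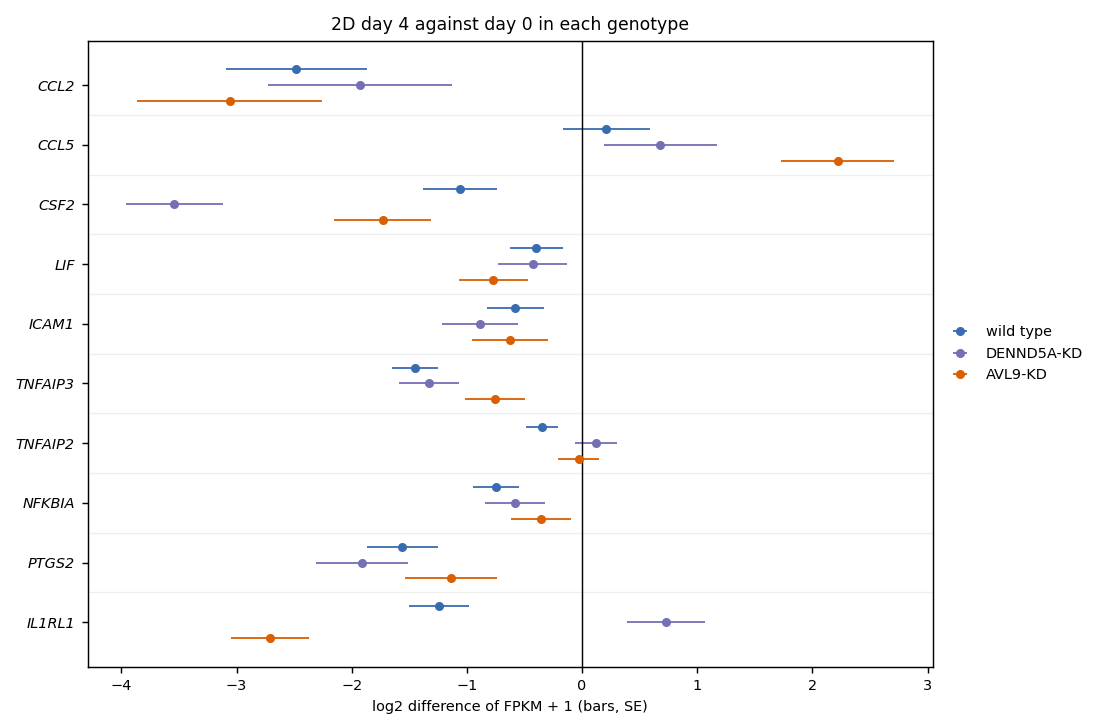
For each member (vertical axis) the horizontal axis gives the log2 difference of FPKM + 1 between 2D day 4 and day 0, with bars for the standard error, in wild type, DENND5A-KD and AVL9-KD. CSF2 lay farther left in DENND5A-KD (-3.54) than in wild type (-1.06), IL1RL1 fell in AVL9-KD (-2.71) and CCL5 lay farthest right there (2.22).

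Later, from day 4 to day 7 in DENND5A-KD, limma called 0 of 10 members and 0.051% of all genes. This step, too, is built from levels that the rule names. At an unadjusted p under 0.05 there were 3 members, and 6.29% of all genes. The smallest p-values were those of PTGS2 (1.31 ± 0.40, adjusted p = 0.271) and IL1RL1 (-1.22 ± 0.34, adjusted p = 0.176), both of which passed without line 2 of day 4 (2.06, adjusted p = 0.0137, and -1.72, adjusted p = 0.021).

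Set beside each other at day 0, 6 members were lower in DENND5A-KD than in AVL9-KD without overlap, beside 38.1% of all genes, and none was higher (14.2%). The levels of each knockdown are named by the rule, so these differences carry no test. The difference (DENND5A-KD minus AVL9-KD) was -2.79 ± 0.40 for PTGS2, -1.64 ± 0.34 for IL1RL1 and -1.34 ± 0.30 for LIF. For the feedback inhibitor NFKBIA it was -1.18 ± 0.26 and for TNFAIP2 -0.64 ± 0.18, and TNFAIP3 was the sixth. The members' median was -0.98, beside -0.12 over all genes. Leaving out single libraries gave -2.94 to -2.65 for PTGS2 and -1.74 to -1.54 for IL1RL1.

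At 2D day 4, 8 members were lower in DENND5A-KD without overlap, beside 50.5% of all genes, and IL1RL1 was higher, beside 9.91%. CCL5 is among the 8, but it passed the filter through knockdown libraries, AVL9-KD at day 4 among them, so nothing is read from its difference. PTGS2 stood farthest apart (-3.56 ± 0.40, and -4.32 to -2.81 with single libraries left out). CSF2 (-2.01 ± 0.42) and CCL5 (-2.0 ± 0.49) followed, the second with -0.79 without AVL9-KD line 4 and the first with -1.27 without AVL9-KD line 1. The inhibitors NFKBIA (-1.40 ± 0.26) and TNFAIP3 (-1.11 ± 0.26) were lower, as were ICAM1 (-1.04 ± 0.33), LIF (-1.0 ± 0.30) and TNFAIP2. IL1RL1 was higher by 1.81 ± 0.34, the reverse of its day 0 difference. Over all genes the median difference was -0.24, and over the members -1.08.

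The other genes of the NF-kB pathway, from a list of 85 written by role (82 found, 64 tested), mostly fell in 3D. At 3D day 8, 43 fell and 5 rose against day 0, where limma called 4478 of all 11774 genes lower and 2911 higher (62.8%). At day 5 the counts were 37 and 5, beside 3678 and 3109 of all genes (57.6%). At day 3 they were 31 and 6, beside 2715 and 3294 (51%). At 24 h 1 gene, GADD45B, passed (-1.21 ± 0.23, adjusted p = 0.0102, where 1.19% of all genes were called). GADD45B did not pass when either 24 h library was left out. In 2D, 23 were lower and 15 higher at day 4, beside 3483 and 3572 of all genes (59.9%). Without 2D day 4 replicate 3 the list had 17 lower and 18 higher. At day 11, 16 were lower and 16 higher, beside 2795 and 3792 of all genes (55.9%). Under quantile normalization the list had 24 lower and 15 higher at day 11. In 3D against 2D, 45 of the 64 were lower and 1 higher, beside 4258 lower and 2032 higher of all genes (53.4%).

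By role, all 5 NF-kB subunits fell at 3D day 8. Beside the counts by role, 4478 of all 11774 genes were lower and 2911 higher at 3D day 8, and 2795 and 3792 at 2D day 11. NFKB2 averaged 4.06 against 14.5 FPKM (a log2 difference of -1.61 ± 0.18, adjusted p = 2.25e-07), REL changed by -1.25 ± 0.16 (adjusted p = 1.28e-06), RELB by -0.95 ± 0.14 (adjusted p = 1.01e-05), RELA by -0.86 ± 0.14 (adjusted p = 2.27e-05) and NFKB1 by -0.83 ± 0.12 (adjusted p = 5.72e-06). At 2D day 11 only 1 of the 5 had fallen, NFKB2 (-0.47 ± 0.16, adjusted p = 0.0147, not called without day 0 replicate 3), and RELA and NFKB1 read -0.09 ± 0.12 (adjusted p = 0.559) and 0.09 ± 0.11 (adjusted p = 0.508). Among IKK subunits and adaptors, 16 of 22 fell at 3D day 8 and none rose, with the ubiquitin ligase BIRC3, itself an NF-kB target, from 23.2 to 1.53 FPKM (a log2 difference of -3.17 ± 0.42, adjusted p = 2.2e-06) and TRAF3 by 1.28 ± 0.14 (adjusted p = 1.47e-07). Of 9 receptors 4 fell, among them CD40 (-1.56 ± 0.22, adjusted p = 4.62e-06) and IL1RAP (-1.35 ± 0.16, adjusted p = 6.96e-07), the co-receptor of IL1RL1, and TNFRSF11A rose (1.02 ± 0.24, adjusted p = 0.000872, not called without the libraries of low depth). Of 17 other targets 11 fell, and complement C3 rose (1.93 ± 0.44, adjusted p = 0.00071).

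Of 11 inhibitors and feedback genes, 7 were lower and 3 higher at 3D day 8, where 4478 of all 11774 genes were lower and 2911 higher. TNIP3, which binds A20, rose from 1.25 to 4.03 FPKM (a log2 difference of 1.14 ± 0.17, adjusted p = 1.19e-05), NFKBIZ from 5.36 to 11.6 (a log2 difference of 0.99 ± 0.18, adjusted p = 9.09e-05) and TAX1BP1, an adaptor of A20, by 0.45 ± 0.11 (adjusted p = 0.0011). They rose while TNFAIP3 itself was low. At 2D day 11 TNIP3 (1.28, adjusted p = 9.45e-07) and TAX1BP1 (0.77, adjusted p = 1.19e-06) were also higher than at day 0. TNIP3 also had the smallest adjusted p of the list in DENND5A-KD against wild type on both days and in AVL9-KD at day 4: 0.0508 FPKM in DENND5A-KD against 1.25 at day 0 (a log2 difference of -1.09 ± 0.17, adjusted p = 0.000469), and 0.0785 in DENND5A-KD and 0.95 in AVL9-KD against 4.4 at 2D day 4 (-2.31 ± 0.18, adjusted p = 1.29e-07, and -1.46 ± 0.18, adjusted p = 2.74e-05). In AVL9-KD at day 0 it read -0.26 ± 0.17 (adjusted p = 0.328).

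**Figure D5:**
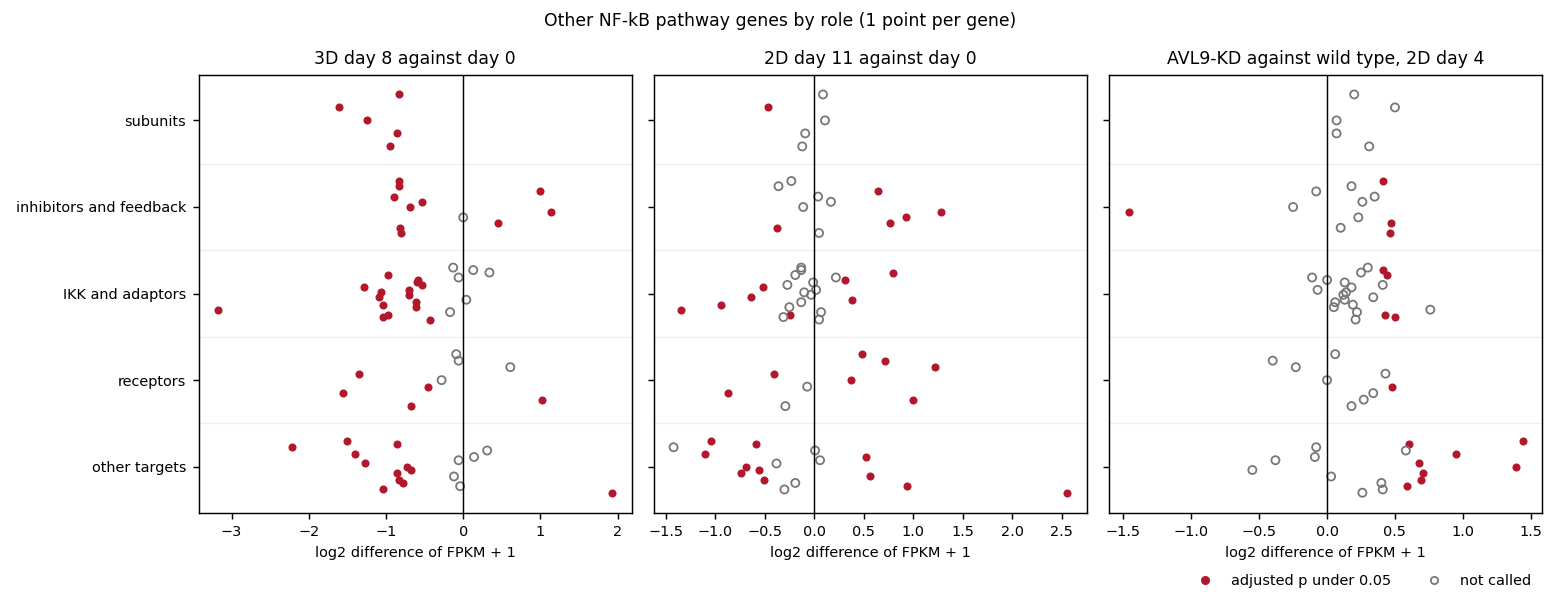
Each point is 1 tested gene of the pathway list, by role on the vertical axis, with its log2 difference of FPKM + 1 on the horizontal axis in 3 comparisons; filled points passed an adjusted p of 0.05. All 5 subunits lay left of 0 at 3D day 8, with 1 called at 2D day 11 and 0 in AVL9-KD against wild type at 2D day 4.

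Against wild type, 11 genes of the list were higher and 2 lower in AVL9-KD at day 0, beside 1578 and 540 of all genes (18%). At 2D day 4, 16 were higher and 1 lower, beside 2199 and 275 of all genes (21%). These counts depend on scaling: under quantile normalization the day 0 split was 5 higher to 3 lower and the day 4 split 5 to 4, and under median-ratio scaling these were 9 to 4 and 2 to 3. They were 5 in all at day 0 without AVL9-KD line 1 and 6 without wild-type replicate 4, and at day 4, 5 without wild-type replicate 3 and 7 without AVL9-KD line 1. PLAU, the urokinase protease, was higher on both days (1.20 ± 0.22, adjusted p = 0.001, and 1.39 ± 0.23, adjusted p = 0.000415), and the chemokine CXCL10 at day 4 (1.44 ± 0.29, adjusted p = 0.00183). TNFRSF1B, a TNF receptor, was lower at day 0 (-1.22 ± 0.22, adjusted p = 0.000759). In DENND5A-KD, 2 were higher (PLAU and MALT1) and 2 lower (TNIP3 and BCL3) at day 0 (5.52% of all genes), with 1 or 2 calls when any 1 library was left out, and TNIP3 alone was called, as lower, at day 4 (11.3%; 3 calls without wild-type replicate 3, 2 without DENND5A-KD line 2).

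Within the knockdowns, 20 list genes fell and 8 rose from day 0 to day 4 in DENND5A-KD. Fewer were called in all when any 1 library of these groups was left out. Of all genes 2615 fell and 2368 rose (42.3%). In AVL9-KD 13 list genes fell and 9 rose, beside 2689 and 3657 of all genes (53.9%). At an unadjusted p under 0.05 the list had 50% in DENND5A-KD and 40.6% in AVL9-KD, beside 49.8% and 58.8% of all genes. BIRC3 fell by 2.45 ± 0.49 in DENND5A-KD (adjusted p = 0.000522) and C3 rose in both (2.66 ± 0.50, adjusted p = 0.000336, and 3.46 ± 0.50, adjusted p = 1.12e-05). From day 4 to day 7 limma called 0 of 64 (0.051% of all genes), and 4 at an unadjusted p under 0.05 (6.25%, beside 6.29% of all genes). Between the knockdowns, 5 were lower and 1 higher in DENND5A-KD at day 0 (4.12% of all genes were called), and 12 and 1 at day 4 (22.4%; 7 and 2 under quantile normalization); 0 were called without DENND5A-KD line 1 on either day, 1 at day 0 without AVL9-KD line 1 and 10 without its line 4. The 1 higher gene was TNFRSF1B both times. Several inflammatory genes of the list were not seen: IL1B, TNF, SELE, CSF3 and IL15 were listed at 0 in all libraries, and the chemokine CXCL8 reached 1 FPKM in 1 library only, AVL9-KD line 1 at day 0 (33.0 FPKM), the library that also held the highest values of 7 members.

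Partners of the members were uneven. For PTGS2, PLA2G4A, which frees the arachidonic acid it uses, fell by 1.33 ± 0.18 at 3D day 8 (adjusted p = 3.31e-06). The prostaglandin E2 receptor PTGER2 fell from 30.4 to 9.75 FPKM there (a log2 difference of -1.54 ± 0.16, adjusted p = 7.83e-08), and at 2D day 11 (-1.01, adjusted p = 4.39e-06). HPGD, which breaks prostaglandins down, rose at 3D day 8 from 0.0283 to 2.1 (a log2 difference of 1.59 ± 0.17, adjusted p = 1.74e-07). PTGER2 was also higher in AVL9-KD than in wild type, at 59.5 against 30.4 FPKM at day 0 (a log2 difference of 0.96 ± 0.16, adjusted p = 0.000332) and 29.6 against 12.5 at day 4 (a log2 difference of 1.19 ± 0.17, adjusted p = 7.25e-05), and lower in DENND5A-KD than in AVL9-KD on both days (-1.08 ± 0.18, adjusted p = 0.0017, and -1.19 ± 0.18, adjusted p = 0.000291). HPGD was lower than wild type in both knockdowns at 2D day 4 (-0.99 ± 0.18, adjusted p = 0.00123, and -0.87 ± 0.18, adjusted p = 0.00256, the second not called without AVL9-KD line 1), and the receptor PTGER4 in DENND5A-KD (-1.08 ± 0.16, adjusted p = 0.000171).

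For LIF, the receptor LIFR fell from 24.6 to 3.12 FPKM at 3D day 8 (a log2 difference of -2.62 ± 0.19, adjusted p = 1.06e-09) and to 10.7 at 2D day 11 (a log2 difference of -1.11 ± 0.16, adjusted p = 1.11e-05), and in both knockdowns from day 0 to day 4 (-1.49 ± 0.22, adjusted p = 2.43e-05, and -1.32 ± 0.22, adjusted p = 3.93e-05). STAT3, the factor that LIF activates, rose by 1.18 ± 0.16 (adjusted p = 3.05e-06) and 1.54 ± 0.14 (adjusted p = 4.4e-08) in the same wild-type groups, and its target and inhibitor SOCS3 rose at 2D day 11 (1.53 ± 0.24, adjusted p = 2.02e-05) and read 0.29 ± 0.27 (adjusted p = 0.356) at 3D day 8. RALA, a partner of TNFAIP2, fell from 30.4 to 6.41 FPKM at 3D day 8 (a log2 difference of -2.07 ± 0.14, adjusted p = 4.81e-10). At 2D day 11 RALA was lower as well (-0.86, adjusted p = 6e-06). BTRC, part of the ligase that removes NFKBIA protein, rose in AVL9-KD from day 0 to day 4 (1.15 ± 0.14, adjusted p = 1.22e-06). In wild type BTRC also rose at 2D day 11 (1.01, adjusted p = 2.3e-07). The ligand of IL1RL1, IL33, and the chemokine receptors CCR2 and CCR3 were listed at 0 in every library, as were CSF2RA and ITGAL.

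Across the 13 group means the members followed each other to different degrees, given as a description over points that share libraries. The median Pearson r of log2(FPKM + 1) with the other 9 was 0.90 for PTGS2, 0.87 for NFKBIA, 0.86 for CSF2 and LIF, 0.85 for TNFAIP3, 0.81 for TNFAIP2 and 0.77 for ICAM1, and it was 0.61 for CCL2, 0.42 for CCL5 and 0.34 for IL1RL1. CCL5 and IL1RL1 ran against each other (r of -0.45). Of 6910 other genes averaging 5 FPKM or more, those most like the members' mean pattern over the 13 groups were DPP8, MTDH, AARS and USP7 (r of 0.98 each) and DUSP3 (0.97). TNFAIP3 was most like FOSL1 (0.99), CSF2 like F3 (0.98), PTGS2 like DPP8 (0.98) and IL1RL1 like HMGB3 (0.90).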

How the data were processed

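The authors deposited 1 file of FPKM values per library, with 24223 Ensembl dog genes. HISAT2 2.1.0, Cufflinks 2.2.1 and the builds canFam3 and CanFam3.1 are named, with no role for each, per the submitters' processing notes. Further scaling is not given in the sources used here. The steps between values under 0.15 FPKM gave each library's relative depth.

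In R 4.3.3, limma 3.58.1 with a mean-variance trend was run on log2(FPKM + 1), with 1 mean per group over all 29 libraries, for the 11774 genes that reached 1 FPKM in 2 libraries or more. Tests were 2-sided, called at a Benjamini-Hochberg adjusted p under 0.05 over all genes. Differences understate the change of low genes. The members and gene lists were chosen with earlier results of these data known. Members and the label genes were always named, as were pathway and partner genes with the smallest adjusted p, the pathway genes of highest mean and the genes of most similar pattern (Pearson r over group means); some that met the rule are not used here. Genes named with a count of 5 or fewer, and others outside the rule, were chosen after their values were seen. Differences per gene compare libraries, not levels between genes.

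Alternatives were a pseudocount of 0.1, quantile normalization, median-ratio scaling, no filter, the replicate or line number as a block, fitting only the groups of a contrast, and omitting libraries singly. A batch term for the 5 libraries of low depth, their omission and the difference between the knockdowns' changes were added after the data were seen. Knockdown lines pair by design; deviations of same-numbered libraries correlated at 0.36 in AVL9-KD, 0.01 to 0.10 in DENND5A-KD, and 0.558, 0.233 and 0.13 for wild-type day 0 with 2D day 4. Member differences between the knockdowns and between 3D and 2D had been set as tests, and are given without one because the rule names those levels. Steps within each knockdown keep their p-values, which are not independent of that rule. The fit was tested on simulated data. Figures were drawn with matplotlib 3.10.9, and tables read with pandas 2.3.3 in Python 3.11.15.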

Additional observations from a re-analysis of the deposited data

Results flagged for a closer look

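In the 4 wild-type day 0 libraries LIF was low in replicate 3 (4.50 FPKM, the others 7.99 to 8.56), with a gap of 0.86 of the range. ICAM1 was high in replicate 1 there (37.0 FPKM, the others 22.0 to 23.6), with a gap of 0.896. Both gaps are above the critical value of Dixon's test for 4 values, which chance passes in about 1 of 20 sets. The check was made for each of the 10 members at day 0, the only group of 4 or more among the 13. Replicate 1 is among the libraries of low depth (0.46 relative to replicate 2).

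The change of IL1RL1 from day 0 to 2D day 4 differed between the knockdowns by 3.44 on the log2 scale (DENND5A-KD minus AVL9-KD, limma adjusted p = 0.00239). With these groups fitted alone the adjusted p was 0.261. The test was added after the data were seen, on levels that the rule names, so it is no independent support. All 4 DENND5A-KD and AVL9-KD lines moved with their own knockdown: both DENND5A-KD lines were higher at day 4 and both AVL9-KD lines were lower.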

How the results depend on the processing

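No member difference past the threshold changed direction. Of 33 member differences in the fitted contrasts that did not pass and are not given, 19 changed sign under some alternative (37 of 459 refits). Fitted on the groups of the contrast alone, members past the threshold went from 7 to 2 in AVL9-KD day 4 against day 0. In the main fit 53.9% of all genes were called there. Between knockdowns they went from 5 to 0 at day 0 (4.12% of all genes) and from 8 to 0 at day 4 (22.4%). No test is drawn on between knockdowns, as the rule names those levels. CCL5 is counted in the 7 and in the 8, but it entered through knockdown libraries, so nothing is read from its calls. Leaving out 1 library gave ranges of 2 to 9, 1 to 5 and 1 to 8 in these contrasts, in that order. For DENND5A-KD day 7 against day 4 the range was 0 to 2 (0.051% of all genes in the main fit). The DENND5A-KD step (4, beside 42.3% of all genes) stayed within 1.5 times. So did 3D against 2D (8, beside 53.4%), but the fall in those libraries chose the members, so that count carries no test.

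For the pathway list, fitting the groups alone gave 0 for 1 call at 24 h, 2 for 4 and 3 for 13 (DENND5A-KD and AVL9-KD against wild type, day 0), 0 for 17 (AVL9-KD, day 4), 17 for 28 and 6 for 22 (DENND5A-KD and AVL9-KD steps) and 0 for 6 and 0 for 13 (between knockdowns). Quantile normalization and median-ratio scaling gave 2 and 2 at 24 h, 3 and 3 for 1 call (DENND5A-KD, day 4) and 9 and 5 for 17; quantile normalization gave 8 for 13, median-ratio scaling 7 for 13 between knockdowns at day 4, and no filter 1 for 4. Single libraries left out gave 0 to 2 at 24 h, 1 to 2 and 5 to 16 against wild type at day 0, 1 to 3 and 5 to 18 at day 4, 17 to 22 for the DENND5A-KD step, and 0 to 10 and 0 to 16 between knockdowns.

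TNIP3 in AVL9-KD against wild type at day 0, not called, ranged from -0.53 to 0.01 with single libraries left out. With the replicate block (random), the list had 3 calls at 24 h. The knockdown lines pair by design. The block moved members across the threshold only for CCL2 and NFKBIA (DENND5A-KD step, given above), CCL5 and TNFAIP2. CCL5 moved in the AVL9-KD step (fixed block) and TNFAIP2 between knockdowns at day 0, and no test is drawn on for either. In wild type, where the labels tie no numbers, 19 of 41 correlations of same-numbered libraries were above 0.1; for day 0 with 2D day 4 all 3 were, and the block then gave 41 list calls for 38. With 2 libraries in most groups, calls in knockdowns often rest on 1 library; absolute depth is unknown, and differences of genes under 1 FPKM are small on this scale whatever their ratio.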
